A study of Mus musculus with 3 samples.

Results

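Calmodulins and other genes that handle calcium in the epidermis were examined in single-cell RNA sequencing data of mouse skin. The 8 genes were chosen by name: the calmodulin genes *Calm2* and *Calm3*, the calmodulin-like genes *Calm4* and *Calml3*, the calcium pumps *Atp2a2* and *Atp2b1*, the calcium-sensing receptor *Casr* and the calcium channel *Trpv6*. Of 19927 gene symbols listed in the 3 libraries, 7 of these 8 were present, and *Casr* was the one without a count. The libraries held epidermal and hair follicle cells freed by trypsin from dorsal skin at P18, when hair follicles regress. Both control libraries came from *Vdr* flox/flox mice and the remaining library from *Vdr* flox/flox; Krt14cre mice (*Vdr* cKO), so the floxed vitamin D receptor allele was shared by all libraries and the Cre driven by the keratin 14 promoter by only 1. Skin of 3 male mice was pooled in each library, as the methods of the study state, and values of single mice were therefore not available. The comparison addressed how calcium handling genes stood in skin whose epithelium was to lack the vitamin D receptor, and where along keratinocyte differentiation each gene was counted.

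Calcium rises from the basal to the granular layer of the epidermis, and this gradient drives keratinocyte differentiation. Calmodulins are small proteins that bind calcium through EF-hand loops and then switch on enzymes such as calmodulin-dependent kinases and calcineurin. SERCA2, the product of *Atp2a2*, refills the endoplasmic reticulum with calcium, and PMCA1, the product of *Atp2b1*, moves calcium out through the plasma membrane. Basal keratinocytes are marked by *Krt14*, spinous cells by *Krt10*, and granular cells by *Lor*, which encodes loricrin of the cornified envelope.

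The first EF-hand loop is shown as an example of how the coding bases of the 4 calmodulin and calmodulin-like genes differ. Where along the transcripts the counted reads fell was not examined. The loop comprises 12 codons (36 bases) at codons 21 to 32 of the coding sequence, and capitals mark the bases that differ from *Calm2*. Sequences were read 5′ to 3′ on the coding strand from GENCODE transcripts of the GRCm38 build.
Calm2: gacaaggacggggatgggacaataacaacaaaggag
Calm3: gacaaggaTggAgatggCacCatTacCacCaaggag
Calml3: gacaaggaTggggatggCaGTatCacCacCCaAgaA
Calm4: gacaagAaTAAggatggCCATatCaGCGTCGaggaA
The loop of *Calm2* lies in exon 3 at chr17:87435873-87435908 on the minus strand, and that of *Calm3* in exon 3 at chr7:16917667-16917702, also on the minus strand. The loops of *Calml3* (chr13:3804108-3804143, minus strand) and *Calm4* (chr13:3837956-3837991, plus strand) lie in genes of 1 exon each. *Calm3* differed from *Calm2* in 7 of the 36 bases, *Calml3* in 10 and *Calm4* in 16.

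*Calm2* and *Calm3* encode the same protein of 149 residues from coding sequences that were 82.6% identical. *Calml3* also has 149 codons, and its coding sequence was 75.4% identical to that of *Calm2*. *Calm4* has 148 codons and was 58.0% identical to *Calm2*, and a search for the EF-hand pattern found 4 loops in each of the 4 genes. The longest run of identical bases shared by transcripts of *Calm2* and *Calm3* was 17 bases. *Calm4* shared a run of 65 bases with its neighbour *Calm5* (chr13:3854173-3854761), so reads may have been divided between these 2 genes and their counts are uncertain. An annotated transcript of the same strand, *Gm40655*, also overlaps *Calm4* (chr13:3837757-3838673). The gene bodies of the others are at chr17:87433412-87446935 for *Calm2*, chr7:16915379-16924114 for *Calm3*, chr13:3802896-3804316 for *Calml3*, chr5:122453513-122502225 for *Atp2a2*, chr10:98914406-99026143 for *Atp2b1*, chr6:41620624-41636405 for *Trpv6* and chr16:36493696-36562141 for *Casr*. *Atp2a2* overlaps 2 annotated transcripts on its own strand and 1 on the other strand.

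After barcodes with under 200 detected genes or over 20% mitochondrial counts were left out, 1480 and 1658 cells remained in the controls. The library labelled *Vdr* cKO kept 2622, and the libraries held 18802408, 28690129 and 30954897 counts in the order control 1, control 2, *Vdr* cKO, which the lists of 3 values below keep. Median counts per cell were 4190, 4493 and 4055, but median detected genes per cell were 377, 502 and 688.5. Of the entries with a count, 14.5%, 22.2% and 26.9% were equal to 1. The libraries were thus alike in counts per cell and not in genes per cell. In each library 20 to 28 kept barcodes also occurred in another library. The deleted gene did not check the label: *Vdr* was at 40.7 and 35.9 CPM (counts scaled to a library total of 1e6) in the controls and higher, at 80.8 CPM, under the label *Vdr* cKO. The floxed part is exon 3, and counts from the rest of the transcript would still be read as *Vdr*. Summed markers of basal keratinocytes were 1643, 1145 and 4780 CPM in the same order, those of suprabasal cells 39185, 36943 and 26535 CPM, and those of granular cells 16721, 16807 and 14239 CPM. The library labelled *Vdr* cKO thus also held more counts of basal markers, and the part of this difference in the values that follow was addressed only through bins of cells. Fewer cells of a type and less RNA per cell cannot be told apart in summed counts. With 1 library labelled *Vdr* cKO no test between genotypes was possible. Values are given with exact Poisson 95% intervals that cover counting error only, and that are too narrow if repeat reads were counted. The distance between the controls is the sole measure of spread between libraries.

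*Calm4*, *Calm2* and *Atp2b1* stood lower in the library labelled *Vdr* cKO by several times the distance between the controls, although none was 2-fold lower. *Atp2a2* stood lower by little more than that distance, and *Calml3* stayed within it. The distance is a single difference between 2 libraries, so multiples of it are a description only. Of 3919 genes, 35.9% lay below both controls by any amount. *Calm3* and *Trpv6* were counted at low levels and were higher.

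*Calm4*, known as a calmodulin-like gene of keratinocytes, was at 5753 CPM (5719 to 5787) and 5657 CPM (5629 to 5684) in controls 1 and 2. The library labelled *Vdr* cKO had 3933 CPM (3911 to 3955). The controls lay within 0.02 of each other on the log2 scale, and the log2 fold of that library over their mean was -0.54. *Calm2* was at 1911 CPM (1891 to 1931), 2072 CPM (2056 to 2089) and 1401 CPM (1388 to 1415) in the same order. Its log2 fold was -0.51, against a log2 ratio of -0.12 between control 1 and control 2. For both genes the library labelled *Vdr* cKO was therefore outside the range of the controls by several times their distance.

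*Calml3* was at 277 CPM (269 to 284), 261 CPM (255 to 267) and 261 CPM (255 to 267). These 3 values could not be told apart beyond the distance between the controls, and the log2 fold was -0.04. *Calm3*, the other gene encoding the common calmodulin protein, was at 22.4 CPM (20.4 to 24.7), 14.2 CPM (12.8 to 15.6) and 46.4 CPM (44.0 to 48.8). It stood above both controls with a log2 fold of 1.30, but the controls themselves were 0.63 apart and the gene stayed under the 50 CPM set as the level for a call. One cell held 37.9% of the *Calm3* counts of control 1. Without the cell of most counts in each library its log2 fold was 1.71.

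The plasma membrane pump gene *Atp2b1* was at 514 CPM (504 to 525), 475 CPM (468 to 484) and 262 CPM (257 to 268). Its log2 fold of -0.91 was the lowest of the 8 genes, and the distance between the controls was 0.11. *Atp2a2*, the gene of the endoplasmic reticulum pump, was at 128 CPM (123 to 134), 114 CPM (110 to 118) and 102 CPM (98.2 to 105). The log2 fold of *Atp2a2* was -0.25, not far beyond the 0.17 between the controls.

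*Trpv6* encodes a calcium channel of the cell surface that vitamin D is known to induce in the intestine. It had 5 counts in 2 cells of control 1, 10 counts in 4 cells of control 2 and 214 counts in 35 cells of the library labelled *Vdr* cKO, which corresponds to 0.266 CPM (0.0863 to 0.621), 0.349 CPM (0.167 to 0.641) and 6.91 CPM (6.02 to 7.90). Relative to all counts the library labelled *Vdr* cKO held 21.9 times (13.0 to 39.8) the counts of the pooled controls. Per cell it held 6.98 times (2.91 to 20.3) as many cells with a count, at the full depth of the cells. Both ranges take single counts or cells as the unit and do not cover the spread between libraries. The range for counts is too narrow if repeat reads were counted. One cell carried 56 of the 214 counts, and 14 of the 35 cells had 1 count. The log2 fold with 1 CPM added was 2.60, and 2.42 without the cell of most counts in each library. At this level *Trpv6* remained under the 50 CPM set for a call in every library.

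*Casr*, the receptor through which keratinocytes sense extracellular calcium, had 0 counts in each library. A count of 0 allows up to 0.160, 0.105 and 0.0969 CPM at these depths (3 counts per library), so *Casr* was not detectable at this depth and no fold is given.

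**Figure D1:**
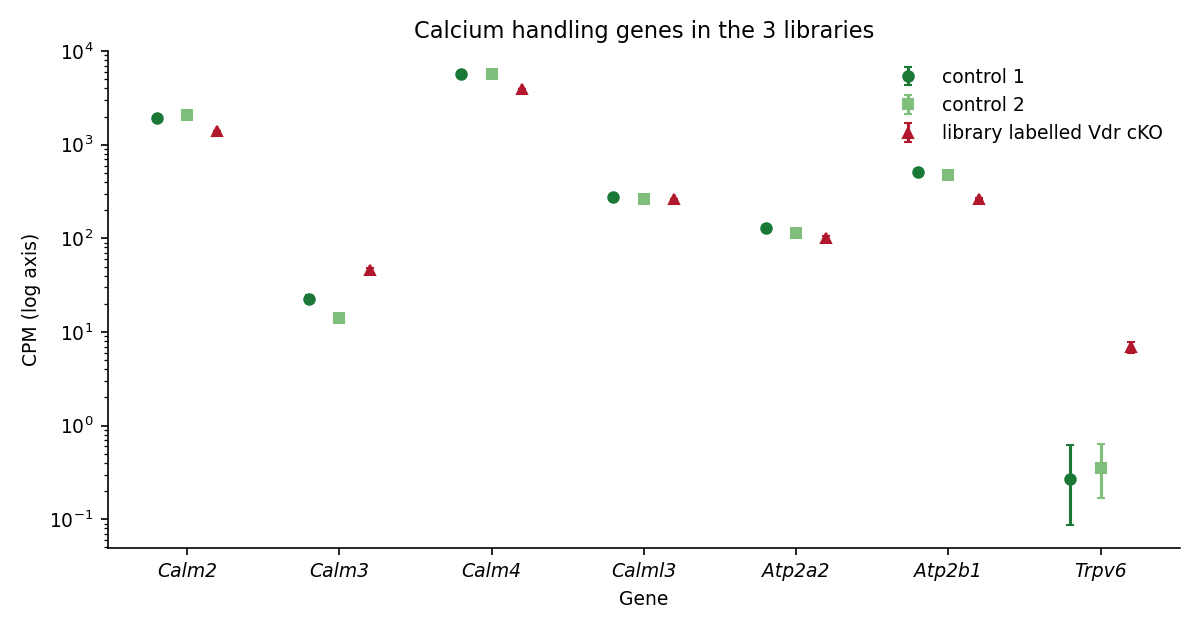
Level of 7 calcium handling genes in CPM (log axis), with 1 point per library (the controls and the one labelled Vdr cKO), with bars for exact Poisson 95% intervals of counting error. Calm2, Calm4 and Atp2b1 are lower in the library labelled Vdr cKO than in both controls, Calm3 and Trpv6 are higher, and Calml3 and Atp2a2 are close to the controls; Casr had 0 counts and is not drawn.

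A gene was called when it had at least 50 CPM in at least 1 library and the library labelled *Vdr* cKO was over 2-fold above or below both controls. None of the 5 calcium handling genes at that level was called, where 5.03% of 3919 genes were (3.88% higher and 1.15% lower). With control 1 or control 2 set in the place of the library labelled *Vdr* cKO, the same rule called 1.68% and 1.74% of genes. By any amount, all 5 lay below both controls, *Calml3* by less than its counting error, whereas 35.9% of all genes lay below both and 38.4% above both. The median log2 fold of the 5 genes was -0.51 and that of all genes tested was 0.0017. Scaling moved these values: trimmed mean of M-values (TMM) factors and median-of-ratios size factors shifted the median log2 fold of all genes to -0.18 and -0.21, and under either of them *Atp2b1* passed 2-fold.

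To place the genes along differentiation, cells low in *Lor* (under 5000 CPM) were split into *Krt14*-high cells (under 5000 CPM of *Krt10* and at least 1000 CPM of *Krt14*) and *Krt10*-high cells (at least 20000 CPM of *Krt10*), and *Lor*-high cells were those with at least 20000 CPM of *Lor*. These groups were defined after the data had been seen. *Krt14*-high cells numbered 25 and 52 in the controls and 233 in the library labelled *Vdr* cKO, *Krt10*-high cells 334, 434 and 363, and *Lor*-high cells 277, 332 and 344. *Calm4*, *Calm2* and *Calml3* were over 2-fold higher in *Krt10*-high than in *Krt14*-high cells of every library, which 9.86% of 3916 genes were, while 3.98% were over 2-fold lower. *Atp2b1* was more than 2-fold higher in the controls only, and *Atp2a2* had no common direction.

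*Calm4* in *Krt14*-high cells was at 113 CPM (94.1 to 136) and 259 CPM (232 to 288) for the controls, and at 794 CPM (761 to 829) for the library labelled *Vdr* cKO. In *Krt10*-high cells it was at 5880, 5493 and 3868 CPM, which made it 51.4, 21.1 and 4.86 times as high as in *Krt14*-high cells of the same library. In *Lor*-high cells it rose further, to 8251, 8078 and 6427 CPM. The order *Krt14*-high, *Krt10*-high, *Lor*-high thus held in every library, with steps far beyond the Poisson intervals, which do not cover the spread between cells.

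*Calm2* was at 244, 509 and 588 CPM in *Krt14*-high cells and at 2225, 2044 and 1462 CPM in *Krt10*-high cells, ratios of 9.09, 4.01 and 2.49. In *Lor*-high cells it was at 2191, 2231 and 1730 CPM, and in control 1 this did not differ from the *Krt10*-high cells beyond counting error. *Calml3* was at 53.4, 90.5 and 97.7 CPM in *Krt14*-high cells and at 259, 291 and 246 CPM in *Krt10*-high cells, ratios of 4.77, 3.20 and 2.50. Its *Lor*-high level was 490 CPM in control 1 but 264 CPM in control 2, and the library labelled *Vdr* cKO lay between them at 392 CPM. *Calml3* therefore kept rising into *Lor*-high cells in 2 of 3 libraries.

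*Atp2b1* peaked in the middle group. It stood at 60.0, 112 and 195 CPM in *Krt14*-high cells, at 740, 668 and 327 CPM in *Krt10*-high cells and at 332, 178 and 199 CPM in *Lor*-high cells. The *Krt10*-high level was 12.1 and 5.90 times the *Krt14*-high level in the controls and 1.67 times in the library labelled *Vdr* cKO. *Atp2a2* went from 192 to 122 CPM in control 1 and from 94.4 to 128 CPM in control 2 between *Krt14*-high and *Krt10*-high cells. For the library labelled *Vdr* cKO the step was from 56.4 to 118 CPM.

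The *Krt14*-high cells were not alike between libraries. Their median depth was 17327, 11316 and 5878 counts per cell, and they held 383, 684 and 2310 CPM of *Krt10* and 287, 371 and 915 CPM of *Lor*. *Calm4* in these cells followed the same order as *Krt10* and *Lor*, and the part of depth, of cells between the stages or of free RNA in the higher *Calm4* of the library labelled *Vdr* cKO was not tested. The median log2 ratio of all genes between *Krt10*-high and *Krt14*-high cells was 0.75, 0.42 and -0.01, below the values of *Calm2*, *Calm4* and *Calml3* in each library. When each gene was counted once per cell, no member passed 2-fold between these groups. As the mean of each cell's CPM, *Calm4* and *Calm2* passed in every library and *Calml3*, at 5.29, 3.11 and 1.93 times, did not.

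**Figure D2:**
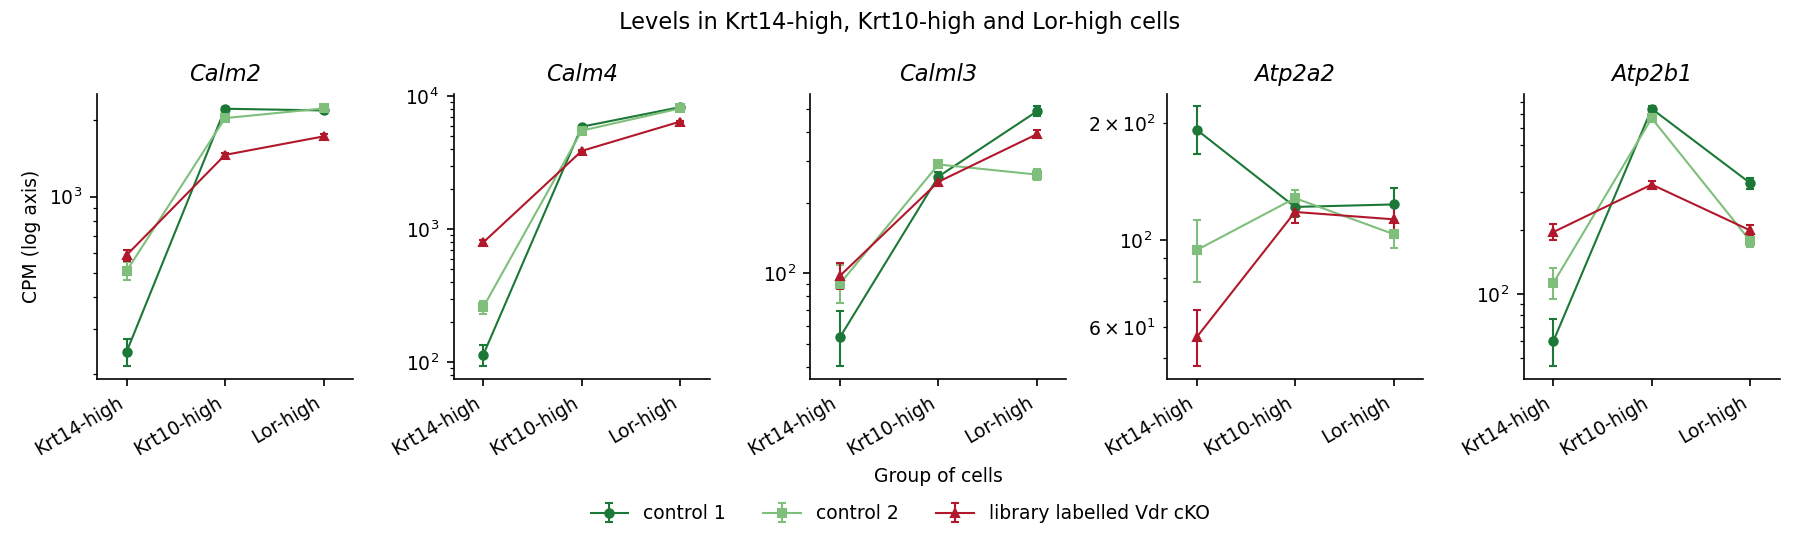
Level in CPM (log axis) of the 5 calcium handling genes with at least 50 CPM, in Krt14-high, Krt10-high and Lor-high cells of each library; points are summed counts and bars exact Poisson 95% intervals of counting error. Calm4 is lowest in Krt14-high cells (113, 259 and 794 CPM) and highest in Lor-high cells (8251, 8078 and 6427 CPM), while Atp2b1 is highest in Krt10-high cells (740, 668 and 327 CPM).

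Across 4 bins of cells by *Lor* (under 1000, 1000 to 5000, 5000 to 20000, and 20000 CPM and over), *Calm4* was lowest in the bottom or the next bin and highest in the top bin. In control 1 it went from 4887 through 5144 and 5778 to 8251 CPM, in control 2 from 4897 through 4715 and 5780 to 8078 CPM. It went in the library labelled *Vdr* cKO from 2459 through 3107 and 4392 to 6427 CPM. The top bin was 1.69, 1.65 and 2.61 times the lowest. *Calm2* was 1.39, 1.33 and 1.91 times as high in the top as in the lowest bin, and *Calml3* was 2.55, 1.15 and 2.31 times as high. *Atp2b1* ran the other way, with top bins at 0.550, 0.305 and 0.666 of the lowest, and *Atp2a2* was nearly level at 1.04, 0.863 and 1.12. A gene was called graded when the top bin was over 2-fold above or below the lowest in all 3 libraries. Across *Lor* none of the 5 genes was graded, where 5.21% of genes were graded upwards and 4.26% downwards. Leaving out control 2 made *Calml3* graded.

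**Figure D3:**
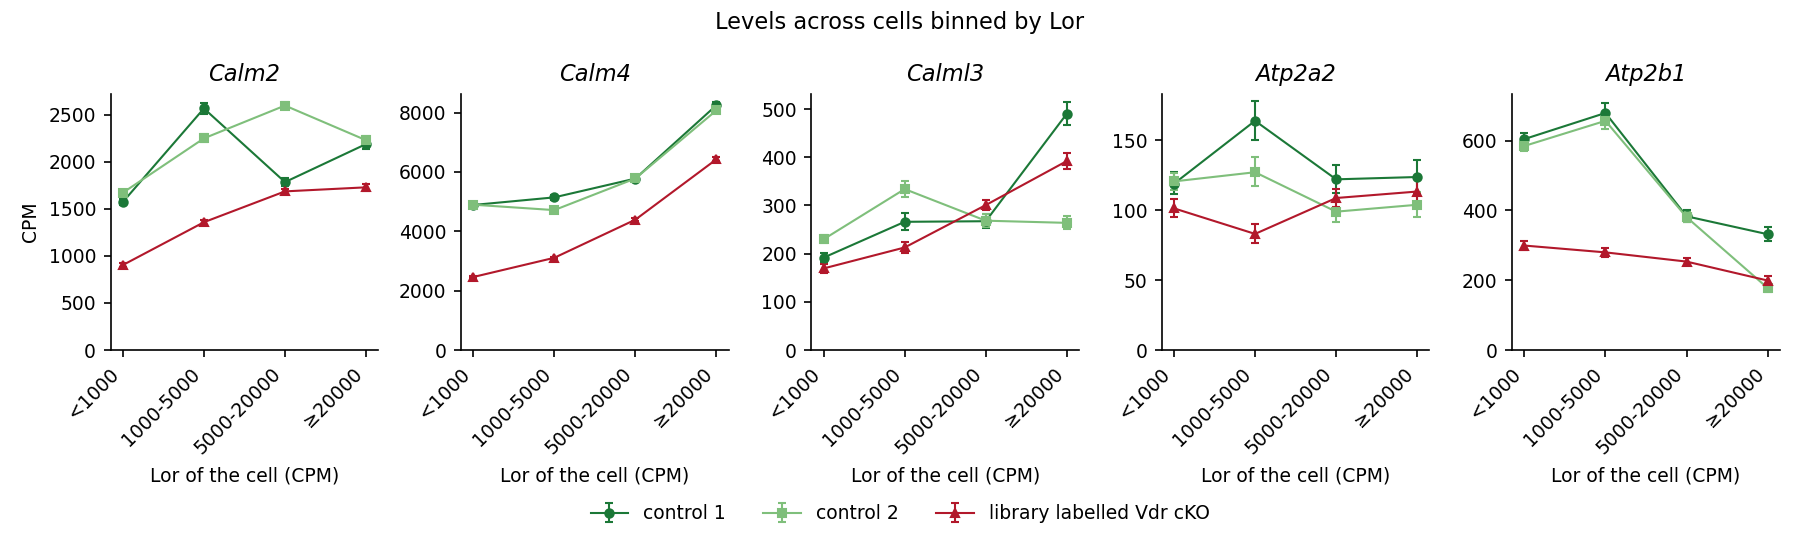
Level in CPM of 5 calcium handling genes in cells binned by their Lor level (4 bins, in CPM) in each library, with exact Poisson 95% intervals of counting error. Calm4 reaches its highest level in the top Lor bin of every library (8251, 8078 and 6427 CPM) and Atp2b1 its lowest.

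Across bins of *Krt10* with the same limits, *Calm2* rose from 250 to 2149 CPM in control 1 and from 334 to 2280 CPM in control 2. The library labelled *Vdr* cKO went from 503 to 1776 CPM. *Calml3* rose from 65.9 to 307 CPM, from 109 to 283 CPM and from 109 to 320 CPM. Both genes were graded upwards, as were 9.93% of genes, while 4.62% were graded downwards. *Calm4* rose 3.31-fold, 1.53-fold and 2.48-fold, and control 2 alone kept it from being graded. Its lowest *Krt10* bin in control 2 stood at 3774 CPM, against 1837 and 1916 CPM in the other libraries. The cells of the lowest *Krt10* bin were not all low in *Lor*. That bin held 18740, 32059 and 13633 CPM of *Lor*, against 8682, 7334 and 12657 CPM in the top *Krt10* bin. Low *Krt10* therefore did not mark early cells alone, and the part of *Lor*-rich cells in these ratios was not tested. *Atp2b1* rose 8.13-fold and 5.46-fold in the controls and 1.15-fold in the library labelled *Vdr* cKO, where its lowest bin stood at 256 CPM against 72.1 and 97.3 CPM in the controls. *Atp2a2* fell from 206 to 115 CPM in control 1 and rose from 53.8 to 122 CPM and from 19.8 to 107 CPM in the other libraries. The lowest *Krt10* bin held 25, 66 and 92 cells, so single cells weigh heavily there.

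Across bins of *Krt14* (0 counts, up to 1000, 1000 to 3000, and 3000 CPM and over) the direction was the opposite. *Calm4* went from 6622 CPM in cells without *Krt14* to 2689 CPM in the top bin of control 1 and from 6108 to 2463 CPM in control 2. The library labelled *Vdr* cKO went from 4823 to 2309 CPM. It was the 1 gene of the 5 graded downwards, as were 2.37% of all genes, while 3.55% were graded upwards. *Calml3* in the top bin was at 0.245, 0.367 and 0.553 of its level in cells without *Krt14*, *Calm2* at 0.321, 0.497 and 0.748, and *Atp2b1* at 0.428, 0.210 and 0.727. *Atp2a2* was at 1.33, 0.912 and 1.00. The calls across *Krt10* and *Krt14* were absent when cells were cut into 4 bins of equal number or when each gene was counted once per cell.

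**Figure D4:**
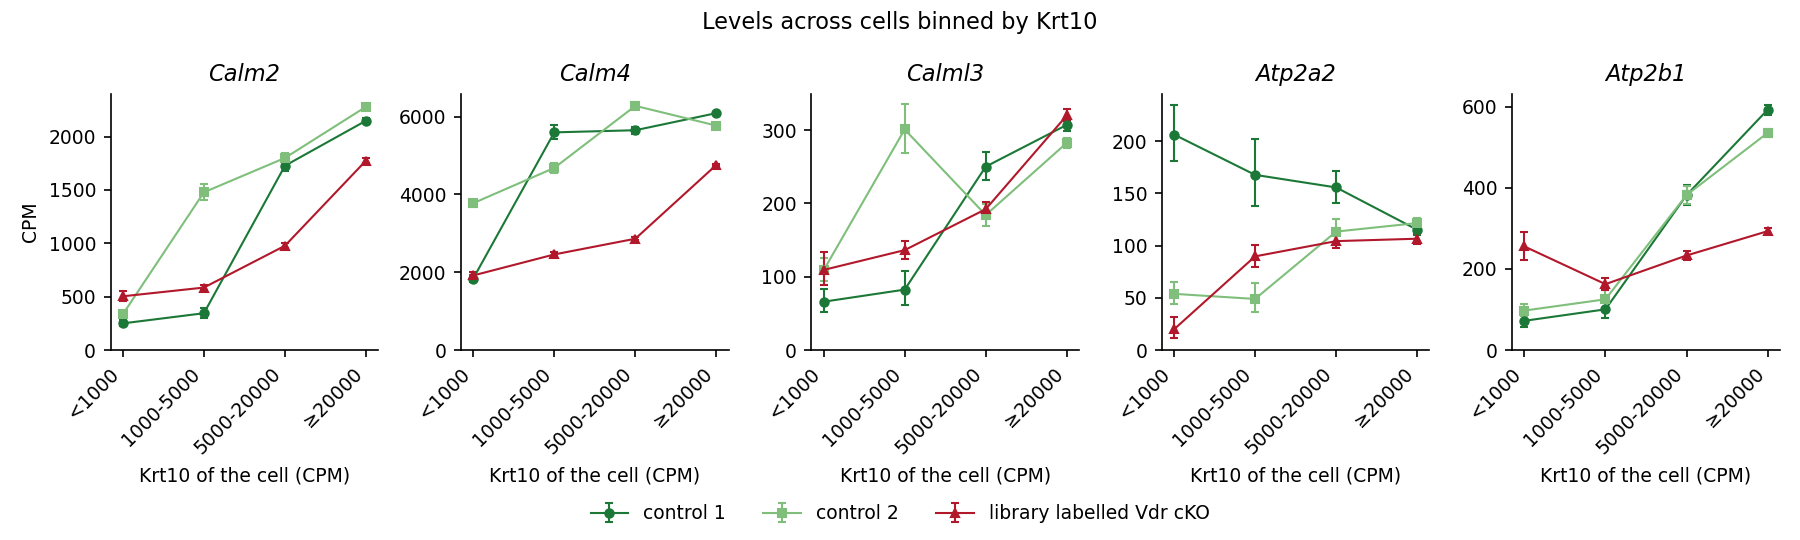
Level in CPM of 5 calcium handling genes in cells binned by their Krt10 level (4 bins, in CPM) in each library, with exact Poisson 95% intervals of counting error. Calm2 and Calml3 end over 2-fold above their lowest bin in every library, and Atp2b1 does so in the controls only.

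The libraries were next compared within each *Lor* bin, since they held different shares of cells in the bins (20000 CPM and over: 18.7%, 20.0% and 13.1% of cells). *Calm4* and *Calm2* lay below both controls in all 4 bins. From the lowest to the top bin the log2 fold of *Calm4* was -0.99, -0.67, -0.40 and -0.35, and that of *Calm2* was -0.84, -0.83, -0.38 and -0.35. *Atp2b1* lay below both controls in the 3 lower bins (log2 fold -0.99, -1.25 and -0.59) and between them in the top bin (-0.35), where the controls were 0.90 apart. The bins did not hold like cells in the 3 libraries. In the lowest bin *Krt14* was at 790, 627 and 2567 CPM, *Krt10* at 37812, 35963 and 20472 CPM, and the median depth was 17381, 17534 and 7201 counts per cell. From the next bin to the top bin *Krt14* was at 1306, 479 and 2300 CPM, at 929, 749 and 1709 CPM, and at 473, 528 and 1306 CPM. *Krt10* was at 39036, 39482 and 25057 CPM, at 36742, 33955 and 25616 CPM, and at 23470, 19231 and 26342 CPM. The part of these in the differences within the bins was not tested. In the *Krt14*-high cells, also low in *Lor*, the values of *Calm4*, *Calm2* and *Atp2b1* given above ran the other way, with the library labelled *Vdr* cKO above both controls.

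*Calml3* lay below both controls in the 2 lower bins (-0.31 and -0.49), above both in the next (0.17) and between them in the top bin (0.06). *Atp2a2* was below both controls in the 2 lower bins (-0.24 and -0.80) and between them in the upper bins (-0.02 and -0.01). With equal weight for each bin, the log2 folds were -0.57 for *Calm2*, -0.54 for *Calm4*, -0.88 for *Atp2b1*, -0.10 for *Calml3* and -0.27 for *Atp2a2*, close to the values over all cells. Equal weight did not level *Krt14* or *Krt10* between the libraries. None of these genes passed 2-fold, as 5.0% of 3897 genes did in either direction and 1.0% below both controls, and the median over all genes was 0.03. *Calm3* was above both controls in each of the 4 bins, with log2 folds from 1.10 to 1.47, while the controls differed by 0.66 to 2.28 within the bins.

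**Figure D5:**
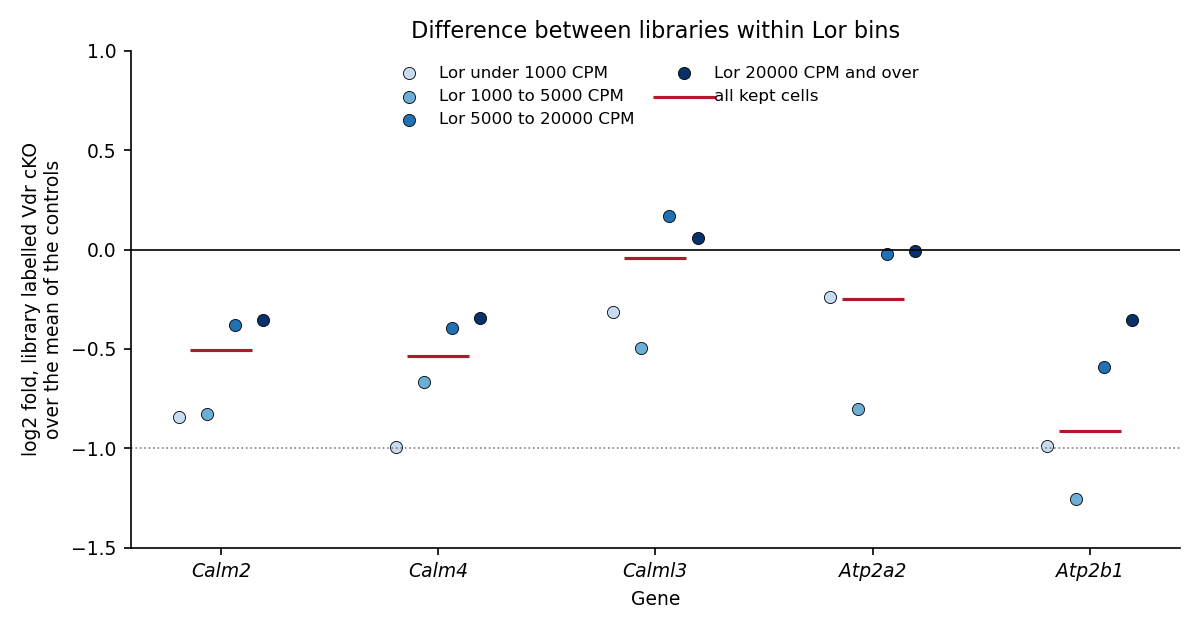
Difference between the library labelled Vdr cKO and the mean of the controls (log2 fold of CPM with 1 CPM added) for 5 calcium handling genes within each of 4 Lor bins (points, darker for more Lor) and over all kept cells (red lines); the dotted line marks 2-fold lower. Calm2, Calm4 and Atp2b1 are below 0 in each bin, and Calm4 goes from -0.99 in the lowest bin to -0.35 in the top bin.

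Shares of cells with a count were compared after each cell was thinned to 1000 counts, which left out 135 shallower cells. Thinning levels counts per cell, and the part of the differing numbers of genes per cell in these shares was not tested. *Calm4* was then found in 83.8% (81.8 to 85.6), 81.5% (79.5 to 83.4) and 74.1% (72.4 to 75.8) of cells, with exact Clopper-Pearson intervals. *Atp2b1* was found in 15.4% (13.6 to 17.4), 15.8% and 11.7% (10.5 to 13.0). These were the 2 members whose interval in the library labelled *Vdr* cKO lay outside those of both controls. The same count was not made over all genes, so it is not read as a result about the members. The intervals take cells as the unit and do not cover the spread between libraries. Without thinning this held for *Calm4*, at 90.9%, 91.5% and 87.1%, and for the low-count genes *Calm3* and *Trpv6*, but not for *Atp2b1*. *Calm2* was found in 42.3%, 49.5% and 40.5% of thinned cells, *Calml3* in 7.71%, 11.0% and 10.3%, and *Atp2a2* in 6.55%, 4.70% and 5.35%. The share was 0.682%, 1.00% and 1.99% for *Calm3*. For *Trpv6* it was 0.0682%, 0.0626% and 0.312%, on 1, 1 and 8 thinned cells and with overlapping intervals. Before thinning these shares were 56.6%, 66.6% and 61.4% for *Calm2*, 16.8%, 25.0% and 26.0% for *Calml3*, 13.2%, 17.3% and 17.0% for *Atp2a2*, 25.5%, 31.3% and 28.4% for *Atp2b1*, 1.69%, 2.83% and 6.94% for *Calm3*, and 0.135%, 0.241% and 1.33% for *Trpv6*.

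*Calm4* was also found in many cells of other types. In 21, 29 and 29 cells rich in class II histocompatibility genes, which mark antigen-presenting cells and not keratinocytes, it was found in 85.0%, 71.4% and 65.5% of thinned cells, at median depths of 3777, 2079 and 5084 counts per cell before thinning, and its level was 5209, 3458 and 5374 CPM. In 14, 12 and 47 cells rich in T cell receptor genes, at median depths of 3071, 2255 and 4337 counts per cell, the shares were 85.7%, 90.0% and 72.3%, and the levels 5114, 7682 and 3138 CPM. The share of all cells with *Calm4* was close to these shares, so it is not read as the share of cells expressing the gene. Its difference between libraries is not read so either. Whether these counts were background or came from the cells themselves was not tested. The levels in both cell types were of the same order as in all kept cells (5753, 5657 and 3933 CPM). The part of background in the levels of *Calm4*, and in their difference between libraries, was not tested. In *Krt14*-high cells *Calm4* was found in 20.0%, 25.0% and 38.7% of thinned cells, well under the shares in these other cell types, at the greater depths given above. Its level was also lower there. *Calml3* was found in 0%, 0% and 13.8% of the class II-rich cells, where exact upper bounds for the 20 and 28 control cells left after thinning were 16.8% and 12.3%. *Atp2b1* was found in 15.0%, 25.0% and 20.7% of class II-rich cells and *Calm2* in 40.0%, 42.9% and 41.4%. These shares lay within counting error of those of all cells, but the intervals were wide (19.1 to 63.9% for *Calm2* in control 1). So few cells cannot tell background from expression of *Atp2b1* and *Calm2* by the class II-rich cells themselves.

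Of 59 other genes of calcium transport, storage and signalling, 55 had a count and 23 reached 50 CPM in at least 1 library. One of these 23 (4.35%) was called, *Stard10*, a lipid transfer gene of the list, at 37.8, 28.0 and 87.7 CPM (log2 fold 1.39). Below both controls by any amount were 13 of 23 (56.5%) and above both were 5 (21.7%), beside 35.9% and 38.4% of all genes, and the median log2 fold of the list was -0.11. Among the lowest against the nearer control were the sodium/calcium/potassium exchanger gene *Slc24a3* (83.6, 62.5 and 41.0 CPM) and the calmodulin-dependent kinase gene *Camk2d* (80.9, 98.8 and 57.3 CPM). After *Stard10* the highest were *Sdf4*, of a calcium-binding protein of the Golgi (99.7, 106 and 138 CPM), and *Ppp3r1*, of the regulatory subunit of calcineurin (57.4, 63.1 and 76.8 CPM), followed by *Nucb1*, of another calcium-binding protein (60.4, 64.4 and 77.3 CPM). *Calm5* was at 15.3, 37.1 and 14.1 CPM, with controls over 2-fold apart.

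Along differentiation, 7 of these 23 genes (30.4%) were over 2-fold higher in *Krt10*-high than in *Krt14*-high cells of every library and 0 were lower, beside 9.86% and 3.98% of all genes by the same rule. They included the store-operated channel gene *Orai1*, the inositol trisphosphate receptor gene *Itpr3*, *Micu2* of the mitochondrial calcium uniporter, the kinase gene *Camk1* and the phospholipase gene *Plcd1*, named after their values were seen. *Calm2*, *Calm4*, *Calml3* and *Atp2b1* had their smallest ratio in the library labelled *Vdr* cKO, and whether the ratios differ between genotypes could not be tested with 1 such library.

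Genes whose level followed a member closely over 12 groups of cells (3 libraries by 4 *Lor* bins) are given as a description, since the groups share libraries, depth and the *Lor* scale. *Calm2* ran closest to *Trim2* (Pearson r = 0.96), with *Dmkn* (0.95) also among its 3 closest. *Calm4* ran closest to *Gm94* (0.96), *Tuba8* (0.95) and *Ggct* (0.94). For *Atp2b1* the closest were *Ahnak2* (0.95), *Gxylt1* (0.94) and *Tpm3* (0.94), and for *Calml3* they were *Thop1* (0.92), *Fhdc1* (0.91) and *Tuft1* (0.88). *Atp2a2* had weaker matches, among them *Ubald1* (0.82).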

How the data were processed

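The authors sequenced 2 control libraries and 1 *Vdr* cKO library made on a Nadia droplet instrument, and deposited a whole-number count for each gene and cell barcode. The submitters' processing notes name the mm10 build, and the study's methods name Seurat v4. How counts were assigned to strand, and whether copies of a molecule were collapsed, is not given in the sources used here, so counts may include repeat reads. The Poisson intervals cover counting error only, and they are too narrow for that error if repeat reads were counted. Groups were taken from the genotype labels, and every deposited count column belonged to 1 sample.

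Here a cell was kept when 200 or more genes were detected in it and no more than 20% of its counts were mitochondrial. Counts of kept cells were summed per library and divided by the library total to give CPM, and log2 folds were taken with 1 CPM added against the mean of the controls. Genes at 50 CPM or more in at least 1 library were compared, and 2-fold was the limit for a call. No doublet caller was run, and the 2% of cells with most counts were left out as an alternative. Bins used fixed limits of *Lor*, *Krt10* and *Krt14*, and between 37 (*Krt10*, 1000 CPM) and 519 (*Krt10*, 20000 CPM) of 5760 cells lay within 10% of a limit. The members and lists were chosen with earlier results of these data known. Named genes were the 8 members, other calcium genes that were called or were lowest or highest against the nearer control, and the 3 genes closest to each member in level. Some genes that this rule picks are not reported here.

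Markers of other cell types were summed per library, with values given for the controls first and then for the library labelled *Vdr* cKO. They came to 0.585, 0.418 and 222 CPM for inner root sheath, 14.1, 37.2 and 212 CPM for companion layer, 56.8, 51.8 and 195 CPM for cycling cells, 168, 242 and 326 CPM for antigen-presenting cells, 16.8, 14.8 and 49.1 CPM for T cells, 2271, 1101 and 1226 CPM for sebaceous cells, 7.82, 0.697 and 2.55 CPM for fibroblasts, 4.15, 1.39 and 0.969 CPM for endothelium, 3.72, 3.31 and 37.9 CPM for melanocytes, and 104, 463 and 62.5 CPM for red cells. Python 3.11.15, numpy 2.4.6, pandas 2.3.3, scipy 1.17.1, Biopython 1.88, edgeR 4.0.16 (TMM factors only) and DESeq2 1.42.0 (size factors only) were used. The rule for a call was run on simulated counts with counting error only and no spread between libraries. That run cannot show how the rule behaves between real libraries.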

Additional observations from a re-analysis of the deposited data

How the results depend on the processing

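No paired analysis was possible because the genotypes share a single replicate number and no result came from a test. Members over 2-fold from both controls numbered 0, but 1 with TMM factors, 1 with median-of-ratios factors and 1 at 1.5-fold (*Atp2b1* each time), 1 at 10 CPM (*Calm3*) and 2 without a level filter (*Calm3* and *Trpv6*). All genes past the limit numbered 197, and 193 with TMM factors and 196 with median-of-ratios factors. They numbered 829 at 10 CPM, 2092 without a filter, 557 at 1.5-fold, and 344 to 380 without either control. Shares of all genes tested are not given for these settings. The counts of members and of other calcium genes under them are therefore a description only. The share of called genes that were higher was 77.2%, against 55.4% with TMM and 51.0% with median-of-ratios factors. It was 84.7% at 10 CPM and 89.6% without a filter, so *Calm3* and *Trpv6* went in the direction of most genes called there. Other calcium genes past the limit numbered 1, but 0 with median-of-ratios factors, without the 2% of cells with most counts or counted once per cell, 2 at 10 CPM or 1.5-fold, 10 without a filter and 3 without control 2.

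The median log2 fold of the 5 members was -0.69 with TMM factors, -0.72 with median-of-ratios factors, -0.63 as the mean of each cell's CPM, -0.57 counted once per cell and -0.45 without control 2. At equal weight of *Lor* bins it was -0.54, and it was -0.59 without the 20 most abundant genes, -0.58 as the mean per cell, -0.53 with all barcodes or in bins of equal cell number, -0.56 at 500 genes, -0.52 at 300 to 4000 genes or without shared or neighbouring barcodes, -0.51 without the cells of most counts, -0.55 counted once per cell and -0.52 without either control.

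Members higher in *Krt10*-high cells numbered 3, but 2 as the mean per cell (without *Calml3*). Counting once per cell, without thinning, left 0 members higher in *Krt10*-high cells and 0 graded across *Krt10* or *Krt14* bins. In bins of equal cell number 0 were graded across *Krt10* or *Krt14*, and across *Krt14* 0 were graded as the mean per cell and 2 at 500 genes (*Calm4* and *Calml3*). Across *Lor* 1 was graded without control 2. For these settings too, shares of all genes are not given. Of the 5 members at 50 CPM, shares lay outside both controls for 3 when cells were thinned to 500 counts (*Calm2*, *Calm4* and *Atp2b1*). They did so for 2 at 1000 counts, for 1 at 2000 counts and for 1 without thinning (*Calm4*). *Calm3* was also outside at 2000 counts, and *Calm3* and *Trpv6* without thinning. These counts have no share of all genes beside them. The causes were not tested. The log2 folds of *Calm2*, *Calm4*, *Atp2a2*, *Atp2b1*, *Calm3* and *Trpv6* kept their sign in all 14 alternatives and that of *Calml3* in 13.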

Other observations

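Barcodes left out by the limits on genes and mitochondrial counts numbered 1308 and 802 in the controls and 160 in the library labelled *Vdr* cKO. *Calm4* stood at 4666, 4629 and 2095 CPM in them, against 5753, 5657 and 3933 CPM in the kept cells. *Calm2* stood at 1421, 1403 and 1055 CPM in the same barcodes. *Atp2b1* was at 345, 116 and 341 CPM there, on 394, 64 and 43 counts, so the order of libraries seen in kept cells was not seen for this gene.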
